A study of Mus musculus with 2 samples.

Results

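The expression of 44 imprinted genes was examined in differentiated female germline stem cells (FGSCs), among 51354 genes with at least 1 ID in the count tables. The members were taken from a fixed list of mouse imprinted genes, 25 of which are known to be expressed from the paternal allele, 15 from the maternal allele and 4 from an allele that depends on isoform or tissue. The study had 2 RNA-seq libraries, replicates 1 and 2, both of differentiated FGSCs of CD-1 females labelled as premeiotic interphase. The cells had been cultured for 3 days on a monolayer of granulosa cells, without GDNF, EGF and LIF, in medium with retinoic acid (RA, 10 µM) and BMP4, a bone morphogenetic protein (10 ng/mL). Each library was made from polyadenylated RNA of a few cells by Smart-seq2, in which cDNA is amplified by PCR before sequencing. Both libraries belong to 1 condition, so no difference between conditions was tested. Nothing in the labels says whether the libraries came from separate cultures.

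Imprinted genes are expressed mainly from the allele of 1 parent, and the choice of allele is written as DNA methylation of imprinting control regions. The marks are erased in primordial germ cells and set anew in the growing oocyte or in the male germline, so these genes are of interest in germline cells. Many members act on fetal growth, and they lie in clusters in which a long non-coding RNA from 1 allele often accompanies silencing of its neighbours. The counts carry no allele, so the parental classes used here are background knowledge and not measurements.

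Promoters of imprinted genes are often rich in the dinucleotide CG, the site of DNA methylation. The promoter windows of 3 of the 4 members with the most counts in replicate 1 (Igf2r, Kcnq1ot1 and Copg2) and of Peg3, a paternally expressed gene at 0 counts, are shown with each CG in capitals. The windows are from RefSeq on GRCm38.p6, run 5′ to 3′ on the strand of the gene from 250 bases before to 50 bases after its start, and lie on the minus strand at chr17:12769657-12769956 (Igf2r), chr7:143296498-143296797 (Kcnq1ot1), chr6:30896745-30897044 (Copg2) and chr7:6730370-6730669 (Peg3).
Igf2r: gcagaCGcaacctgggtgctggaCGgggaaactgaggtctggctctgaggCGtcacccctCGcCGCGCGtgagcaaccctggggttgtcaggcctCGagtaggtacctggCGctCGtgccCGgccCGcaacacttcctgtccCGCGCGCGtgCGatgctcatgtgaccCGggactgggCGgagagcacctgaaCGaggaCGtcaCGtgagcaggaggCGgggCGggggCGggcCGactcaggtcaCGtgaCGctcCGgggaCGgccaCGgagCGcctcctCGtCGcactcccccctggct
Kcnq1ot1: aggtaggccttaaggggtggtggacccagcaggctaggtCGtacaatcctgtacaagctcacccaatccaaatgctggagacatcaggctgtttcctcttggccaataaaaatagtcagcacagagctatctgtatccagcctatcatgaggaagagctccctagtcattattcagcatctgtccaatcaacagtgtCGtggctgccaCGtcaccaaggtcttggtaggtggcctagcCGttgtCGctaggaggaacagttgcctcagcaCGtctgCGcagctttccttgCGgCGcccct
Copg2: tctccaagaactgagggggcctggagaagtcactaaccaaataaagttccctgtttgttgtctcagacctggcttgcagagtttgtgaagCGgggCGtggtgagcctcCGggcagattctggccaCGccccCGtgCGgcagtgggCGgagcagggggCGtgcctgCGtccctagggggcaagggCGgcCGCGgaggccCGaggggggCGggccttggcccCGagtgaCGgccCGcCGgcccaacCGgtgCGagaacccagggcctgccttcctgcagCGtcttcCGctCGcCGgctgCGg
Peg3: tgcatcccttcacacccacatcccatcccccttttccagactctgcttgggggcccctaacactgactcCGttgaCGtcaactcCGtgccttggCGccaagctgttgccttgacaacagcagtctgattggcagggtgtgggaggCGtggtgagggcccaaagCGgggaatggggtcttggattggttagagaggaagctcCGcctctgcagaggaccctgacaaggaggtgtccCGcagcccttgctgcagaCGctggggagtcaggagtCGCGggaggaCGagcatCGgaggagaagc
The Igf2r window held 34 CG, that of Copg2 25, that of Peg3 13 and that of Kcnq1ot1 9. CG is its own reverse complement, so a count covers both strands. A window was found for 36 of the 44 members, and the first listed window of each held a median of 15 CG, against 7 over all 32851 promoter windows of the same length. At least 15 CG were present in 19 of the 36 members (52.8%) and in 34.6% of all windows, and at least 1 CG in 94.6% of all windows. The 10 members with a window and at least 3 counts in replicate 1 had a median of 25.5 CG, from 9 to 45, and the other 26 a median of 13, from 0 to 48. The other 26 include members with 1 or 2 counts, such as Ppp1r9a with 48 CG. The ranges overlapped, and the methylation of these sequences was not analysed here.

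Replicate 1 held 1517151 counts and replicate 2 held 12442, so that 1 count stood for 0.659 and 80.4 counts per 1000000 (CPM), respectively. The labelled germ cell identity could be checked only in part against its markers. Of 15 germ cell markers, 0 had a count in replicate 1 and 1 (Lhx8, 1 count) in replicate 2, with Ddx4, Dazl, Stra8 and Sycp3 at 0 in both. The exonic sequence that belongs to a single entry of the table, and can thus be counted, was short in these genes. It was 0.254 kb in Ddx4, 0.881 kb in Dazl, 0.348 kb in Stra8 and 0.095 kb in Sycp3. This limits what their 0 says, whereas Zbtb16 was at 0 with 5.28 kb. A further 10577 and 6 counts were on IDs that could belong to Ifitm3 or to another gene. Fibroblast markers were counted for 10 of 12 genes in replicate 1 (summed 2979 CPM) and for 5 of 12 in replicate 2 (1447 CPM). Of these, 6 and 3 reached 3 counts. Dcn had 2281 counts in replicate 1, Vim, Fn1 and Thy1 had 1 each, and Lum and Pdgfrb were at 0 in both. Granulosa cell markers were counted for 6 of 15 genes (619 CPM) and 3 of 15 (321.5 CPM). In replicate 1 these were Kitl (453 counts), Fst (229), Gja1 (224), Inhba (26), Hsd17b1 (4) and Nr5a2 (3). In replicate 2 Fshr had 2 counts, and Kitl and Gja1 had 1 each. Foxl2 and Amh were at 0 in both. Over all genes, the counted share was 23.2% (replicate 1) and 7.22% (replicate 2). The part of such cells in the values of the imprinted genes was not tested, and fewer cells of a type and less RNA per cell cannot be told apart in these libraries. Among 10 genes used by every cell, chosen after seeing the data, counts in replicate 1 ran from 1 (Eef1a1 and Tbp) to 12110 (B2m), so a gene at 0 can have been transcribed. All intervals are 95% intervals of counting error only. The tables list protein accessions without a gene, and the gene of each was inferred from its place in the list, so the counts given for accessions rest on that inference, including all counts of Igf2r, Grb10, Plagl1 and Peg12, whereas those of Kcnq1ot1 lie on an Ensembl transcript ID.

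A count was found for 17 of the 44 imprinted genes in replicate 1 (38.6%), where 23.2% of all genes and 44.2% of protein-coding genes had a count. In replicate 2, 6 of 44 were counted (13.6%), against 7.22% of all genes and 12.8% of protein-coding genes. Both shares lay above that of all genes and nearer to that of protein-coding genes, which make up 37 of the 44 members. At least 3 counts were reached by 11 members in replicate 1 (25%), against 15.6% of all genes and 33.2% of protein-coding genes, and by 3 members in replicate 2 (6.82%), against 2.06% and 3.82%. Igf2r, Kcnq1ot1, Ube3a and Gnas were counted in both libraries, and 3.68% of all genes were. These 4 made up 23.5% of the members counted in replicate 1 and 66.7% of those counted in replicate 2. In all, 19 members had a count in at least 1 library and 25 were at 0 in both. Of these 25, 6 had counts on an ambiguous ID, which are not included here. The median of log2(FPKM + 1) was 0 in both libraries for the members and for all genes, where FPKM is counts per exonic kilobase per 1000000 counts of the library. The imprinted genes together took 2178 counts in replicate 1, 0.144% of the library (95% Clopper-Pearson interval 0.138% to 0.150%), and 23 counts in replicate 2, 0.185% (0.117% to 0.277%). The shares differed by less than the counting error of replicate 2.

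**Figure D1:**
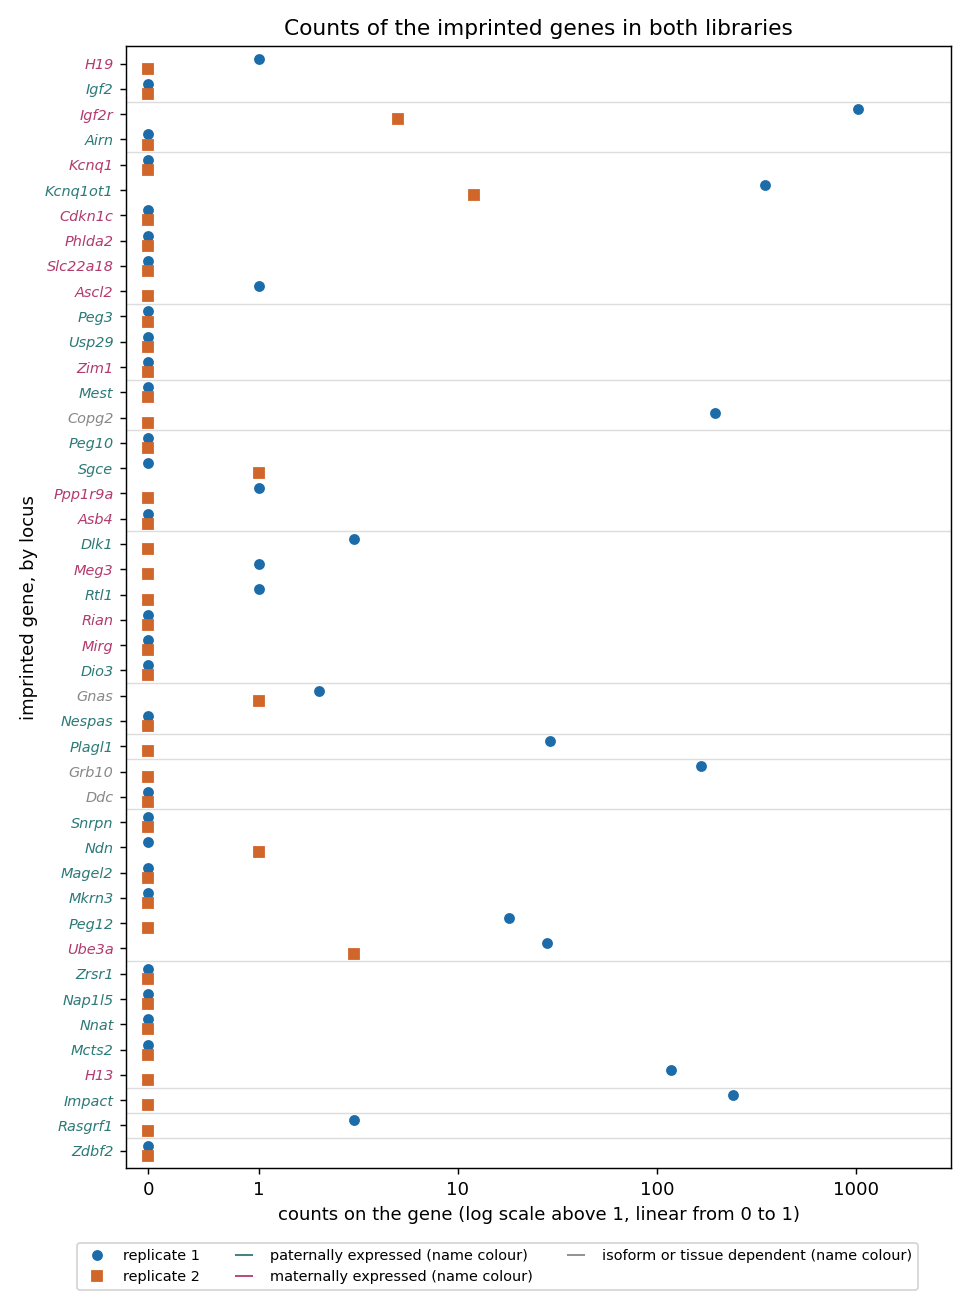
Counts of each of the 44 imprinted genes (rows, grouped by locus with grey lines between loci; the colour of a name marks the allele known to be expressed) in replicate 1 (circles) and replicate 2 (squares), on an axis that is logarithmic above 1. Igf2r has the most counts in replicate 1 (1022) and Kcnq1ot1 in replicate 2 (12), and 25 genes are at 0 in both.

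The Igf2r-Airn locus contributed the most counts in replicate 1. Igf2r encodes the cation-independent mannose 6-phosphate receptor, which carries lysosomal enzymes and clears IGF2, and is expressed from the maternal allele. It had 1022 counts in replicate 1 and 5 in replicate 2. These counts correspond to an FPKM of 72.4 (Poisson interval 68.0 to 76.9) and 43.2 (14.0 to 100.8). By library totals, its level in replicate 2 was 0.597 times that in replicate 1 (interval 0.193 to 1.40), which is within counting error. An alternative scaling for library composition (TMM) gave factors of 0.329 for replicate 1 and 3.04 for replicate 2. Applied to the totals, these factors would lower the levels of replicate 2 relative to replicate 1. With them, the lower level of Igf2r in replicate 2 would lie beyond counting error. The ratios between the libraries given here therefore depend on the scaling, and their values were not recomputed with TMM. By counts placed in 1 gene, Igf2r was the highest imprinted gene per exonic length in replicate 1, at rank 794 of 51354 genes. All its counts lay on a single protein accession, Q07113. Of its exonic bases, 93.3% belonged to 1 ID only, meaning that 1 entry of the table covers them. Airn, the paternally expressed antisense RNA that silences Igf2r in cis, was at 0 in both libraries. The gene spans of Igf2r (chr17:12682406-12769664, minus strand) and Airn (chr17:12741311-12860136, plus strand) overlap, and the sources used here do not state that strand was used in counting, so reads from the shared stretch cannot be told apart.

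In the Kcnq1 domain, Kcnq1ot1 was the only member counted in replicate 2. Kcnq1ot1 is a long, unspliced antisense RNA made from the paternal allele within Kcnq1, and it silences several neighbours in cis. It had 349 counts in replicate 1 and 12 in replicate 2, all on its 1 transcript (chr7:143203458-143296549, minus strand, 1 exon). This gave an FPKM of 2.47 (2.22 to 2.74) and 10.4 (5.35 to 18.1). By library totals, the level in replicate 2 was 4.19 times that in replicate 1 (2.15 to 7.42), beyond counting error under that scaling. The TMM factors given above would reverse the direction, so the higher level in replicate 2 depends on the scaling. Its exon spans 93.1 kb, and per exonic length it ranked 6087 of 51354 genes in replicate 1. By library totals, other RNA classes also had a larger share in replicate 2. Transcripts annotated as retained introns took 1.51% of replicate 1 and 14.6% of replicate 2. Antisense genes other than Kcnq1ot1 took 0.221% and 2.61%. The part of these differences in the Kcnq1ot1 values was not tested. Kcnq1, a potassium channel subunit whose introns contain the Kcnq1ot1 transcript, was at 0 in both libraries, and reads from its introns cannot be told apart from Kcnq1ot1 where strand is not used. The maternally expressed Cdkn1c, an inhibitor of cyclin-dependent kinases, and Phlda2, which limits placental growth, were at 0, as was the transporter gene Slc22a18. An accession that could be Phlda2 or Slc22a18 had 1 count in replicate 1. Ascl2, a transcription factor of the trophoblast, had 1 count in replicate 1.

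Impact, Copg2, Grb10 and H13 followed Igf2r in level in replicate 1 and were all at 0 in replicate 2. Impact, a paternally expressed regulator of the translation kinase GCN2, had 240 counts in replicate 1, an FPKM of 30.8 (27.1 to 35.0), of which 224 lay on accession O55091 and the rest on a processed transcript (12) and a retained intron (4). Copg2, which encodes a coat protein of transport vesicles, had 196 counts, an FPKM of 25.2 (21.8 to 29.0), with 191 on Q9QXK3. The intervals of Impact and Copg2 overlapped. Copg2 is convergent with Mest, a paternally expressed hydrolase gene that was at 0 in both libraries, and 16.9% of the 31-base words of Copg2 transcripts also occur in Mest transcripts on either strand. Grb10, an adaptor that dampens insulin and IGF signalling and is maternally expressed in most tissues and paternally in neurons, had 166 counts, all on Q60760, and an FPKM of 12.0 (10.3 to 14.0). Ddc, its neighbour and the gene of DOPA decarboxylase, had no count of its own, while an accession that could be Ddc or Fignl1 had 822 counts in replicate 1. H13, which encodes signal peptide peptidase, had 117 counts and an FPKM of 8.68 (7.18 to 10.4), with 97 counts on Q9D8V0, 11 on a retained intron and 9 on Q6PGJ8. The interval of H13 overlapped that of Grb10. By library totals, the 0 of replicate 2 separates the libraries for none of these 4 genes. Under that scaling, 3 counts in replicate 2 are worth an FPKM of 47.0 for Impact and 47.1 for Copg2. They are worth 26.5 for Grb10 and 27.1 for H13, and each value is above the level in replicate 1. With the TMM factors given above, each value would instead fall below the level in replicate 1.

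Mcts2, a paternally expressed retrogene within an intron of H13, could not be separated from its host by place in the list, the only basis used here. The accession Q9CQ21 could belong to either gene and had 281 counts in replicate 1 and 0 in replicate 2, so H13 and Mcts2 together had 398 counts in replicate 1. Given to Mcts2 alone, these 281 counts would make it the highest imprinted gene, at an FPKM of 203.1. The other retrogenes and the host-embedded Nnat were at 0 in both libraries: Zrsr1, related to a splicing factor, Nap1l5, of the nucleosome assembly protein family, and Nnat, a proteolipid of developing brain. Their hosts Commd1, Herc3 and Blcap had 0, 61 and 607 counts in replicate 1 and 2, 1 and 1 in replicate 2.

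**Figure D2:**
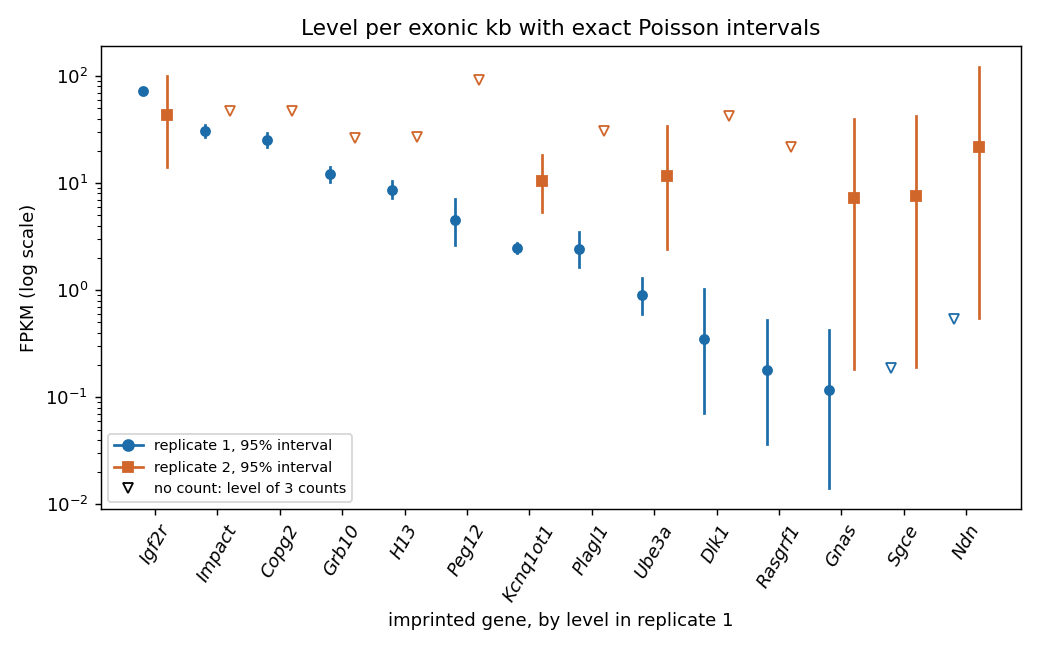
FPKM on a log axis of the 14 imprinted genes with at least 3 counts in replicate 1 or at least 1 count in replicate 2, with exact Poisson 95% intervals as bars and, where a library had no count, the level that 3 counts would have as an open triangle. Igf2r lies highest in replicate 1 (72.4). Kcnq1ot1 and Ube3a lie higher in replicate 2 than in replicate 1 with intervals that do not overlap. Every open triangle of replicate 2 lies above the level in replicate 1. All levels use library totals. TMM scaling would lower replicate 2 relative to replicate 1 and would reverse the order of the libraries for Kcnq1ot1.

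In the Prader-Willi/Angelman domain, Ube3a and Peg12 held nearly all counts. Ube3a encodes a ubiquitin ligase whose maternal allele is the active one in neurons, and it had 28 counts in replicate 1 and 3 in replicate 2. Its FPKM was 0.895 (0.595 to 1.29) and 11.7 (2.41 to 34.2). By library totals, the level in replicate 2 was 13.1 times that in replicate 1 (2.54 to 42.3). With the TMM factors given above, this difference would lie within counting error. In replicate 1, 20 of the 28 counts lay on a single-exon retained intron transcript (chr7:59282415-59285762) and 7 on the accession O08759; in replicate 2 the split was 1 and 2. The excess in replicate 2 rested on 3 counts. Retained introns took a larger share of that library as a whole. Of the Ube3a counts they held 21 of 28 in replicate 1 and 1 of 3 in replicate 2, too few to compare the shares. Ube3a overlaps the antisense RNA Snhg14 on the other strand. Peg12, a paternally expressed gene of the FRAT family of GSK-3 binding proteins, had 18 counts in replicate 1, an FPKM of 4.49 (2.66 to 7.10), and 0 in replicate 2. Ndn, which encodes necdin, a growth suppressor of neurons, had 0 counts in replicate 1 and 1 in replicate 2. Its neighbours Magel2 and Mkrn3 were at 0 in both, and so was Snrpn, apart from 1 count in replicate 1 on an accession that could be Snrpn or Snurf.

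Plagl1, a paternally expressed zinc finger factor that acts on other imprinted genes, had 29 counts in replicate 1, all on Q9JLQ4, and 0 in replicate 2. Its FPKM was 2.44 (1.64 to 3.51), and its interval overlapped those of Kcnq1ot1 and Peg12. Rasgrf1, a guanine nucleotide exchange factor for RAS, had 3 counts in replicate 1 and 0 in replicate 2. Dlk1, a NOTCH-like regulator of adipocyte formation and the best known paternally expressed gene of the Dlk1-Dio3 domain, also had 3 and 0. The FPKM of Dlk1 was 0.350 and that of Rasgrf1 0.179, with overlapping intervals. Few counts lay on the other members of the Dlk1-Dio3 domain: the maternally expressed non-coding RNA Meg3 and the retrotransposon-derived Rtl1 had 1 count each in replicate 1 and 0 in replicate 2, and Rian, Mirg and Dio3 were at 0 in both.

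Without counts on ambiguous IDs, the order of the levels per exonic length in replicate 1 was Igf2r, Impact, Copg2, Grb10, H13, Peg12, Kcnq1ot1, Plagl1, Ube3a, Dlk1 and Rasgrf1. Intervals of neighbours were separate between Igf2r and Impact, between Copg2 and Grb10, between H13 and Peg12 and between Plagl1 and Ube3a, and overlapped in the other neighbouring pairs. In replicate 2 only Kcnq1ot1, Igf2r and Ube3a had 3 counts or more, and their intervals overlapped.

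Gnas, which encodes the stimulatory G protein α subunit and several imprinted products from alternative first exons, had 2 counts in replicate 1 and 1 in replicate 2. Together they lay on 3 different accessions, Q9Z0F1 and P63094 in replicate 1 and Q6R0H7 in replicate 2, with an FPKM of 0.118 in replicate 1 and 7.19 in replicate 2. Its antisense partner Nespas was at 0. In the Peg10 domain, Sgce, the gene of ε-sarcoglycan, had 0 counts in replicate 1 and 1 in replicate 2, on a retained intron, and Ppp1r9a, which encodes the actin-binding neurabin, had 1 and 0. Peg10, a retrotransposon-derived gene of the placenta, and Asb4, a component of ubiquitin ligase complexes, were at 0.

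H19 and Igf2, the best known imprinted pair, had almost no counts. H19, a maternally expressed growth-limiting non-coding RNA, had 1 count in replicate 1 and 0 in replicate 2, and only 0.146 kb of its 2.46 kb of exons belonged to 1 ID only. Igf2, the paternally expressed fetal growth factor, had 1 count in replicate 1 on an accession that could also be Gm49394 and 0 elsewhere, with 1.77 kb of countable sequence. All members of the Peg3 domain (Peg3 and Zim1, zinc finger genes, and Usp29, of the ubiquitin protease family) were at 0 in both libraries, as was Zdbf2.

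How much of a gene could be counted at all varied among the imprinted genes. Of 10320 Ensembl IDs without an exonic base of their own, 3 were counted in replicate 1, against 6576 of 64872 with such bases, so the exonic bases that belong to 1 ID only largely set what a gene can collect. The median was 4.43 kb in the 17 members counted in replicate 1 and 1.77 kb in the 27 members at 0 there, of which 11 had less than 1 kb and Peg10 had none. Over all members the median was 2.75 kb, against 1.76 kb in protein-coding genes. Zdbf2 had 0.114 kb and Snrpn 0.126 kb, so a 0 says little about either. Other members were at 0 with much more countable sequence: Usp29 had 12.9 kb, Rian 12.7 kb, Peg3 10.0 kb and Zim1 7.95 kb. Over these bases, 3 counts in replicate 1 would be worth an FPKM of 0.154 for Usp29, 0.156 for Rian, 0.197 for Peg3 and 0.249 for Zim1. The same limit was under an FPKM of 1 for 11 of the 25 members at 0 in both libraries, among them Ddc, for which an ambiguous accession was counted. These limits hold for what was counted: Tbp, used by every cell, had 1 count over 9.05 kb of such sequence.

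**Figure D3:**
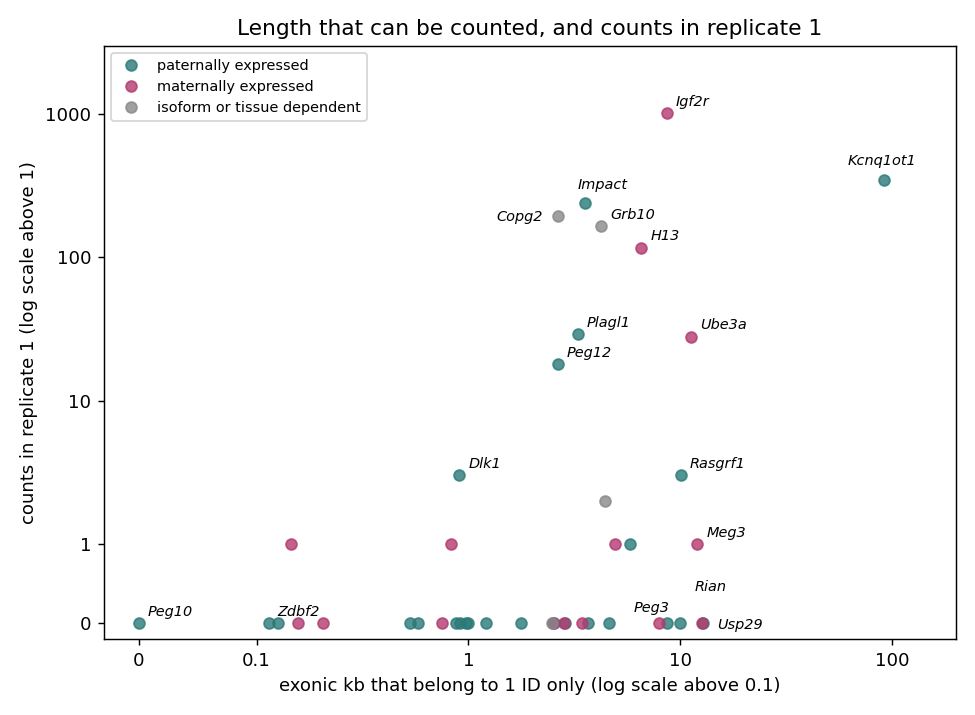
Counts in replicate 1 of the 44 imprinted genes (points, coloured by the allele known to be expressed) against the exonic kilobases that belong to 1 ID only, with both axes logarithmic beyond their first step. Peg10 and Zdbf2 lie at the left with almost no countable sequence, whereas Usp29, Rian and Peg3 lie at 0 counts with 10.0 to 12.9 kb.

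By the allele known to be expressed, maternally expressed members held 53.8% of the imprinted gene counts in replicate 1 (51.6% to 55.9%) and 34.8% in replicate 2 (16.4% to 57.3%). Paternally expressed members held 29.5% (27.6% to 31.5%) and 60.9% (38.5% to 80.3%). A single gene decided each figure: Igf2r held 46.9% of the counts in replicate 1 and 21.7% in replicate 2, and Kcnq1ot1 16.0% and 52.2%. Without Igf2r, paternally expressed members held 55.6% in replicate 1 and 77.8% in replicate 2, and without Kcnq1ot1 16.1% and 18.2%. The larger class in replicate 1 thus turned with the removal of Igf2r. Ube3a, whose maternal allele is the active one in neurons, was placed in the maternal class, with 28 and 3 counts. Counted in genes, 7 of 15 maternally expressed and 7 of 25 paternally expressed members had a count in replicate 1, and 2 of 15 and 3 of 25 in replicate 2. At 3 counts or more the order in replicate 1 turned, with 3 of 15 (20%) maternally and 6 of 25 (24%) paternally expressed members, and in replicate 2 there were 2 of 15 and 1 of 25. The 7 non-coding members (H19, Airn, Kcnq1ot1, Meg3, Rian, Mirg and Nespas) held 16.1% of the counts in replicate 1 and 52.2% in replicate 2, and Kcnq1ot1 held all of these but 2 counts in replicate 1 and all of them in replicate 2.

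**Figure D4:**
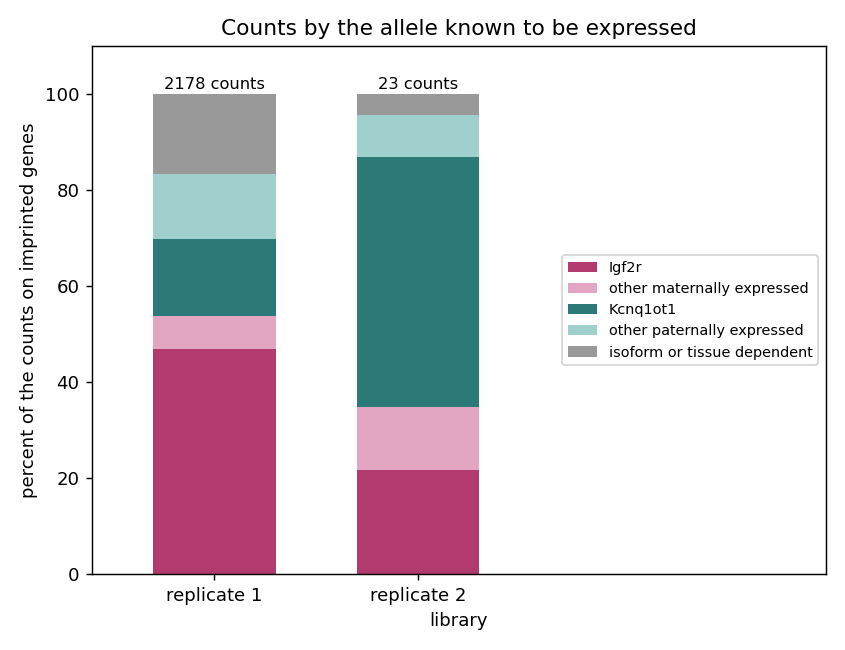
Share of the imprinted gene counts (vertical axis, percent) held by Igf2r, the other maternally expressed genes, Kcnq1ot1, the other paternally expressed genes and the genes whose allele depends on isoform or tissue, with 1 stacked bar for each library (2178 counts in replicate 1 and 23 in replicate 2). Igf2r is the largest part in replicate 1 (46.9%) and Kcnq1ot1 in replicate 2 (52.2%).

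Among 25 genes next to the imprinted loci, 10 were counted in replicate 1 and 6 in replicate 2, beside the same shares of 23.2% and 7.22% of all genes and 44.2% and 12.8% of protein-coding genes. The highest in replicate 1 were Blcap (607 counts), whose intron holds Nnat, Casd1 (130), a sialic acid acetyltransferase beside Sgce, Herc3 (61), the host of Nap1l5, and Pon2 (50), a paraoxonase beside Ppp1r9a. They had 1, 0, 1 and 0 counts in replicate 2.

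Of 20 genes that set, keep or erase imprinting marks, 13 were counted in replicate 1, where 23.2% of all genes and 44.2% of protein-coding genes were, and 5 in replicate 2, where 7.22% and 12.8% were. The differences between these shares were not tested. The highest in replicate 1 were Smchd1 (386 counts), a chromatin protein of the inactive X and of imprinted clusters, Uhrf1 (306), which brings DNMT1 to hemimethylated DNA, Ctcf (275), the insulator protein bound at the H19-Igf2 control region, and Zfp445 (213), a zinc finger protein that protects imprints. Smchd1 had 3 counts in replicate 2 and the other 3 genes had 0. The methyltransferase genes Dnmt1 and Dnmt3b and the dioxygenase gene Tet1 were at 0 in both libraries. So were the demethylase gene Kdm1b and Dppa3, which protects maternal methylation in the zygote. Their countable sequence was 1.384 kb (Dnmt1), 0.78 kb (Dnmt3b), 1.305 kb (Tet1), 1.061 kb (Kdm1b) and 0.26 kb (Dppa3). All lie below the median of protein-coding genes (1.76 kb), which limits what a 0 says about them. Uhrf1 had its 306 counts over 0.706 kb, so such a length did not by itself prevent counts. Dnmt3l, the cofactor needed to set maternal imprints in oocytes, had 0 counts in replicate 1 and 5 in replicate 2.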

How the data were processed

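RNA-seq of differentiated FGSCs was available as 2 tables, 1 for each replicate, of 129311 IDs (76066 Ensembl transcript IDs and 53245 protein accessions). The values that the authors deposited are whole-number counts for each ID, neither normalized nor pooled. The submitters' processing notes name FastQC, Trim Galore, HISAT2 2.2.1, featureCounts and mm10, whereas the methods of the paper name another aligner and FPKM; the tables hold counts, and the annotation and the treatment of reads on several transcripts are not given in the sources used here.

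Ensembl IDs were matched to GENCODE M21 (GRCm38, the assembly of mm10), which held 75192. The tables do not name the gene of a protein accession: it was inferred from the place of the accession in the list, which follows chromosome and transcript start, among unlisted coding transcripts starting there. This placed 45443 accessions in 1 gene and left 7704 ambiguous. A further 972 IDs had no gene, and these include the Ensembl IDs that GENCODE M21 did not hold. The inference was checked by hiding 50% of the Ensembl IDs: of those placed in 1 gene, 99.9% were right when 20% of the hidden IDs were taken off the list, and 89.9% when the transcripts of 20% were taken out of the annotation instead (97.2% where the own transcript was kept and 54.0% where it was removed). Counts were summed per gene over IDs of 1 gene, and FPKM was computed over the union of its exons. On ambiguous IDs lay 13.2% (replicate 1) and 7.58% (replicate 2) of all counts.

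Replicate 1 held 1517151 counts and replicate 2 held 12442. With 1 condition no test was run. FPKM and ratios of libraries used library totals. TMM scaling was applied to the median level, and elsewhere its factors were used only to state how a reading would change. Intervals are exact Poisson, or Clopper-Pearson for shares, at 95%; ratios of libraries used the exact binomial interval. They cover counting error only, since PCR reads are not independent molecules, and a count of 0 was read as up to 3 counts. Values are given for members with at least 3 counts in replicate 1 or 1 in replicate 2, and for neighbours and regulators the 4 genes with the most counts in replicate 1; Dnmt3l and the regulators at 0, Commd1, the genes named from the marker lists and members with fewer counts were named outside this rule, after their values were seen. Members and lists were chosen with earlier results of these data known. Alternatives were ambiguous IDs, Ensembl IDs only, retained introns, overlapping genes, a minimum of 3 counts, length, scaling (edgeR TMM), pseudocount and each replicate left out; leaving out Igf2r or Kcnq1ot1 was added after seeing the data. The scripts were tested on simulated data. Python 3.11.15, numpy 2.4.6, scipy 1.17.1, matplotlib 3.10.9, R 4.3.3 and edgeR 4.0.16 were used.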

Additional observations from a re-analysis of the deposited data

How the results depend on the processing

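Replicate 2 held 23 counts on imprinted genes, which limits every value from it. With Ensembl IDs only, whose gene is not inferred, 7 members were counted in replicate 1, 3 in replicate 2, 8 in either and 2 in both, the members held 0.0266% and 0.113% of the libraries, paternally expressed members held 90.3% and 92.9% of that, and Kcnq1ot1 was highest (FPKM 2.47). With ambiguous IDs given to every member they could belong to, 23 members were counted in replicate 1, 6 in replicate 2 and 25 in either. Members then held 0.216% of replicate 1 and paternally expressed ones 26.0% of that. The median log2(FPKM + 1) in replicate 1 was 0.058, and Mcts2 was highest (203.1). Without members that overlap another gene, 13 members remained, of which 5 were counted in replicate 1, 1 in replicate 2, 6 in either and 0 in both; they held 0.0126% and 0.00804% of the libraries, 12.6% and 100% of that was on paternally expressed members, and Grb10 was highest (12.0). At a minimum of 3 counts, 11, 3 and 11 members were counted in replicate 1, replicate 2 and either. Without the mitochondrial genome in the total, the members held 0.163% of replicate 1. Per base of 1 ID only, Igf2r stayed highest at 77.6. A pseudocount of 0.1 put the median at -3.32 in both libraries, and restricted to members with any count it was 0.49 in replicate 1. Leaving out 1 replicate, 6 to 17 members were counted in the other. Without Igf2r the paternally expressed share of replicate 1 was 55.6%, and without Kcnq1ot1 it was 16.1% in replicate 1 and 18.2% in replicate 2. Leaving out retained introns moved none of these results beyond counting error. The cause of these moves is the construction of each alternative. No paired analysis was possible because the data hold a single condition.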
